A study of Mus musculus with 9 samples.

Results

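The genes described are those of the mitochondrial respiratory chain, the mitochondrial ribosome and the machinery that brings proteins into mitochondria. They were taken by gene symbol, as every gene of the deposited table whose name starts with Nduf, Cox and a digit, Atp5, Uqcr, Sdha to Sdhd, Mrpl or Mrps and a digit, Timm or Tomm. The rule found 29 of the 2402 genes of the table, while 210 protein-coding genes of the GENCODE M21 mouse annotation match it. Respiratory chain genes made up 13 of the 29, and 16 belonged to the mitochondrial ribosome or to protein import. The name rule found no gene of complex III, although Cyc1, cytochrome c1 of that complex, is in the table under a name outside the rule. How the 2402 genes were chosen is not given in the sources used here.

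Respiratory complexes I to IV pass electrons from nutrients to oxygen, which at complexes I, III and IV drives protons across the inner mitochondrial membrane, and complex V, the ATP synthase, uses the returning protons to make ATP. The subunits measured here are made from nuclear genes, translated in the cytosol and carried through the TOM complex of the outer membrane and the TIM complexes of the inner membrane. The few subunits that mitochondrial DNA encodes are translated inside the organelle by the mitochondrial ribosome, whose proteins are nuclear products too. In bone marrow, stem cells are known for low use of respiration, and progenitors that divide and mature rely on it more.

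Messenger RNA was sequenced from 9 sorted bone marrow samples of male C57BL/6 mice in which a Flt3-cre transgene was crossed to the mTmG reporter (FlkSwitch mice). All groups carry both alleles, so cells are Tomato positive (Tom+) as long as no cell of their line has expressed Cre from Flt3 regulatory sequence, and turn to GFP once one has. The labels give 3 samples of GFP+ megakaryocyte progenitors (MkP, sorted as Lin-, cKit+, Sca1-, CD150+, CD41+) from mice of 3 months. From old mice they give 2 samples of GFP+ MkP, 2 of Tom+ MkP and 2 of Tom+ haematopoietic stem cells (HSC, sorted as Lin-, cKit+, Sca1+, CD150+, Flk2-). The age of the old mice is 18 to 20 months in one field and 20 months in another. No treatment other than age is labelled, and whether a sample is 1 mouse or a pool is not stated.

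The deposited table has 9 rows without names, and no label ties a row to a sample. The rows are called libraries 1 to 9 here, as a name and nothing more, and no comparison between ages, reporter colours or cell types was possible. Each value is therefore given per library, in normalized counts as the authors scaled them, and no SD over a group could be formed. The libraries held 1790670 to 4373460 recovered reads in the table, of which 1.66% to 3.76% fell on the 29 genes. Libraries 3 and 4 stood apart from the other 7: the summed normalized count of 10 measured megakaryocyte markers was 12533 and 20889 there against 105638 to 189867 elsewhere, and that of 8 measured HSC markers was 24300 and 16513 against 756 to 2995. All 10 megakaryocyte markers had their 2 lowest values, and all 8 HSC markers their 2 highest, in libraries 3 and 4. Of 4 measured erythroid markers the sums were 290.2 and 308.9 there against 5788 to 8530 in the others, a sum made up mostly of Aqp1. Library 8 had the highest erythroid sum, but its Rhd (3.15), Ermap (10.5) and Add2 (2.10) were close to those of libraries 3 (4.72, 2.36 and 3.54) and 4 (9.15, 5.72 and 0). The markers of the other lineages did not move as 1 list. Of 4 granulocyte and monocyte markers Prtn3 (12248 and 11466 against 313 to 2006) and Csf3r (668 and 862 against 6.14 to 119.5) were higher in libraries 3 and 4. Csf1r was 0 and 1.14 there against 3.07 to 82.6, and Cebpa was 0 in both against 1.64 to 41.2. Of 3 T and NK cell markers Nkg7 was lower in libraries 3 and 4 (185 and 667 against 2153 to 27162), while Klrb1c (493 and 469 against 0 to 68.2) and Lck (44.8 and 43.5 against 6.99 to 26.8) were higher. The 1 B cell marker measured stayed at or under 12.3 and the 1 mast cell marker, Fcer1a, between 0 and 103. In bulk samples such as these, fewer cells of a type and less RNA per cell cannot be told apart.

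Promoters of 1 member from each of 4 classes are shown before the values. They were taken only from members with a match to a motif named below, the highest median of a class first. Each therefore holds a match by choice. RefSeq promoter windows on GRCm38.p6 (mm10) were matched by symbol for 27 of the 29 genes. They reach from upstream of the start used for the window to just past it, which need not be the GENCODE gene start. The Tomm20 window lies wholly upstream of the GENCODE gene, and that of Mrpl36 lies within its gene. No entry was used for Mrpl19 and Mrpl54. The motifs searched on both strands were NRF1 (GCGCANGCG), ETS (CCGGAAG) and YY1 (AAGATGGCG), factors known to act at promoters of nuclear genes for mitochondrial proteins. None of these letter strings contains another. Below, capitals mark the match; in Atp5o and Tomm20 it is the reverse complement of the NRF1 letters, and in Ndufa9 and Timm50 the YY1 letters read as printed. All 4 windows lie on the minus strand and are printed 5′ to 3′ on that strand, at chr6:126849095-126849394 for Ndufa9, chr16:91931581-91931880 for Atp5o, chr7:28311997-28312296 for Timm50 and chr8:126945872-126946171 for Tomm20.
Ndufa9: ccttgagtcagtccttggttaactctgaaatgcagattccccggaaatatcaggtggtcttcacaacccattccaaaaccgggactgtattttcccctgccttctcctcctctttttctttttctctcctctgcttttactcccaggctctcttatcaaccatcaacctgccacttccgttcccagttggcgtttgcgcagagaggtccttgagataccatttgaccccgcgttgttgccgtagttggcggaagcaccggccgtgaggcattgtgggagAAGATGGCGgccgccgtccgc
Atp5o: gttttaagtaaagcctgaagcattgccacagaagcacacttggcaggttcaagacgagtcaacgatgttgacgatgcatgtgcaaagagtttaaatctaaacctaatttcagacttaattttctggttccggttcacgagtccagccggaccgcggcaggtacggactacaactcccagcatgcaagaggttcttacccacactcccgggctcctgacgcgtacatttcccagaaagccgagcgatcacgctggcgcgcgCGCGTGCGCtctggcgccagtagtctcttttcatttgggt
Timm50: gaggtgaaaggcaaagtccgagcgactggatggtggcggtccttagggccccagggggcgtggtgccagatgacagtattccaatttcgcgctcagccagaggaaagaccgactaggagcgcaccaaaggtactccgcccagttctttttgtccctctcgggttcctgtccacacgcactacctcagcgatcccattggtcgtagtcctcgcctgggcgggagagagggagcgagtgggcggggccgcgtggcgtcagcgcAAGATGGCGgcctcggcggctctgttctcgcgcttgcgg
Tomm20: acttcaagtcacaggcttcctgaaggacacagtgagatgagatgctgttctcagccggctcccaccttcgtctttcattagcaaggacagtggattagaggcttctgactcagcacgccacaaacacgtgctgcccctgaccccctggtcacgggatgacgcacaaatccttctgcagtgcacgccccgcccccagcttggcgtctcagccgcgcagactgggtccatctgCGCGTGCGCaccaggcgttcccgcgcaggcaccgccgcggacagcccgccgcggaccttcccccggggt

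At least 1 motif was present in 17 of the 27 windows (63%), against 29.6% of the 1778 genes of the table with a window. Of all 27025 genes with a window, 16.5% held one. The YY1 letters were in 5 member windows (18.5%, against 2.42% of table genes and 1.64% of all), namely those of Ndufa9, Timm50, Mrpl36, Mrpl42 and Mrps11. The NRF1 letters were in 7 (25.9%, against 14.4% and 7.03%), among them Atp5g2 but not its paralog Atp5g1. The ETS letters were also in 7 (25.9%, against 17.9% and 9.93%), Sdhb, Ndufs8 and Timm23 being examples. Respiratory genes held a motif in 8 of 13 windows (61.5%) and ribosome and import genes in 9 of 14 (64.3%). A match is a string of letters in a window and no measure of binding.

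All 29 genes passed the filter on low values, 10 or more normalized counts in no fewer than 2 libraries. The reads of each gene were tested against 1 rate common to the 9 libraries, by a chi-square test with Benjamini-Hochberg adjustment over the 2341 genes that passed. Past counting error, 28 of the 29 genes differed between libraries at an adjusted p under 0.05, where 98.7% of all tested genes did, so the count says nothing particular about mitochondrial genes. The exception was Cox15.

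The shared pattern was a low value in library 3 and a high value in library 7. Of the 29 genes, 28 were lowest in library 3 (36.6% of all tested genes were), and the remaining one, Ndufv3, was lowest in library 4. The highest value was in library 7 for 26 genes, against 24.8% of all tested genes. Libraries 3 and 4 were the 2 lowest for 28 genes, against 41.0%, and library 8 was the next lowest for 26 of the 29. The set of genes compared bears on these counts, as 26 of the 29 had a median of at least 1000 normalized counts. Among the 641 tested genes with such a median, 85.6% were lowest in library 3 and 69.1% highest in library 7. For 91.9% of them libraries 3 and 4 were the 2 lowest. That median was taken over all libraries, so a gene high in libraries 3 and 4 alone could not enter this set. The cut thus favours genes low there, and these shares do not show an effect of abundance alone. Of those 26 abundant members, 25 were lowest in library 3 and 25 highest in library 7. The scaling bears on the counts too. After scaling each library to the table total, 26 of the 29 were still lowest in library 3 (28.7% of all genes) and 20 highest in library 7 (7.35%). Only 9 then had both libraries 3 and 4 at the bottom (24.2%). The megakaryocyte and HSC markers given above, and single markers of other lineages, differ in libraries 3 and 4 as well, and their part in the result was not tested.

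**Figure D1:**
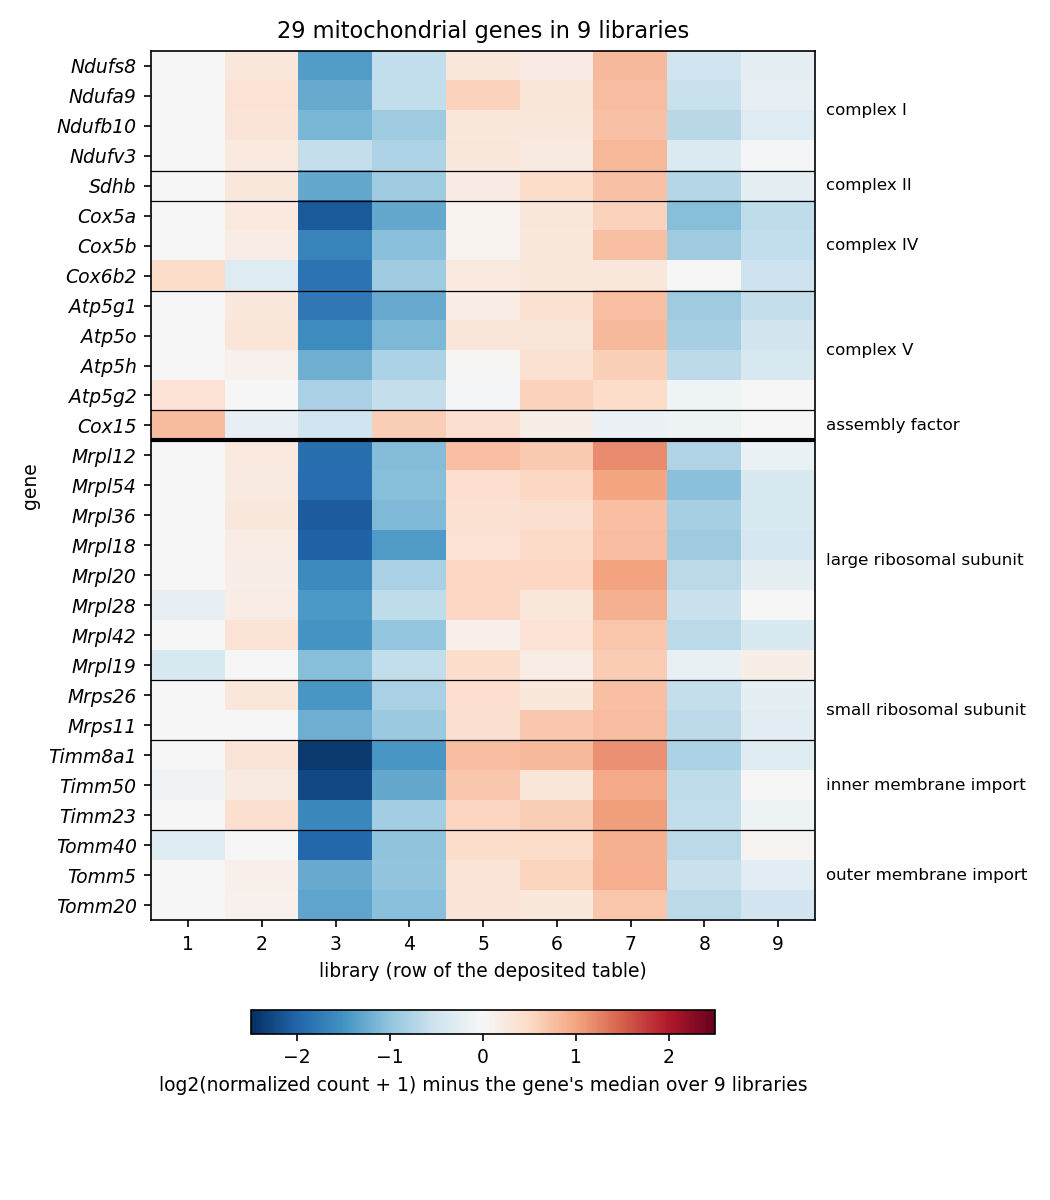
Each row is 1 of the 29 genes, each column 1 of the 9 libraries, and colour gives log2(normalized count + 1) less the gene's median over the libraries, blue below and red above it; thin lines separate classes and the thick line separates respiratory from ribosome and import genes. The column of library 3 is blue throughout and is the lowest for 28 genes, and that of library 7 is the highest for 26, Cox15, Cox6b2 and Atp5g2 being the exceptions.

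The size of the range, the highest library over the lowest with 1 added to both, differed between the 2 sets of genes, as a description with no test of the difference. At least 4-fold ranges were found for 7 of 13 respiratory genes and 14 of 16 ribosome and import genes, where 66.4% of all tested genes reached that size. Median ranges were 4.10-fold for respiratory genes, 6.18-fold for ribosome and import genes and 6.16-fold for all tested genes. Among genes with a median of at least 1000 the median was 3.91-fold and 49.0% reached 4-fold. So did 6 of 11 respiratory and 14 of 15 ribosome and import genes with such a median. This cut leaves out genes that were high in a few libraries alone. Sdhb at 3.998-fold and Mrps11 at 3.99-fold fell just under the threshold and Tomm20 at 4.02-fold just over it.

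These counts rested on 2 libraries and on the scaling. Leaving out library 3 left 0 respiratory and 5 ribosome and import genes at 4-fold (50.1% of all genes), and leaving out library 7 left 3 and 9 (61.7%). Without libraries 3 and 4 both, 0 and 1 remained at that size (20.8%), the 1 being Mrpl54. Scaled to the table total, 0 respiratory genes and 1 ribosome or import gene, Timm8a1, reached 4-fold, while 68.0% of all genes did. That total sums only the 2402 genes of the table, among them markers such as Itga2b (1616 in library 3, 77883 in library 7). It therefore depends on which genes the table holds. With that scaling the order of the medians held, at 2.01-fold for respiratory and 2.69-fold for ribosome and import genes. It also held without library 3 (3.05-fold and 3.68-fold).

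**Figure D2:**
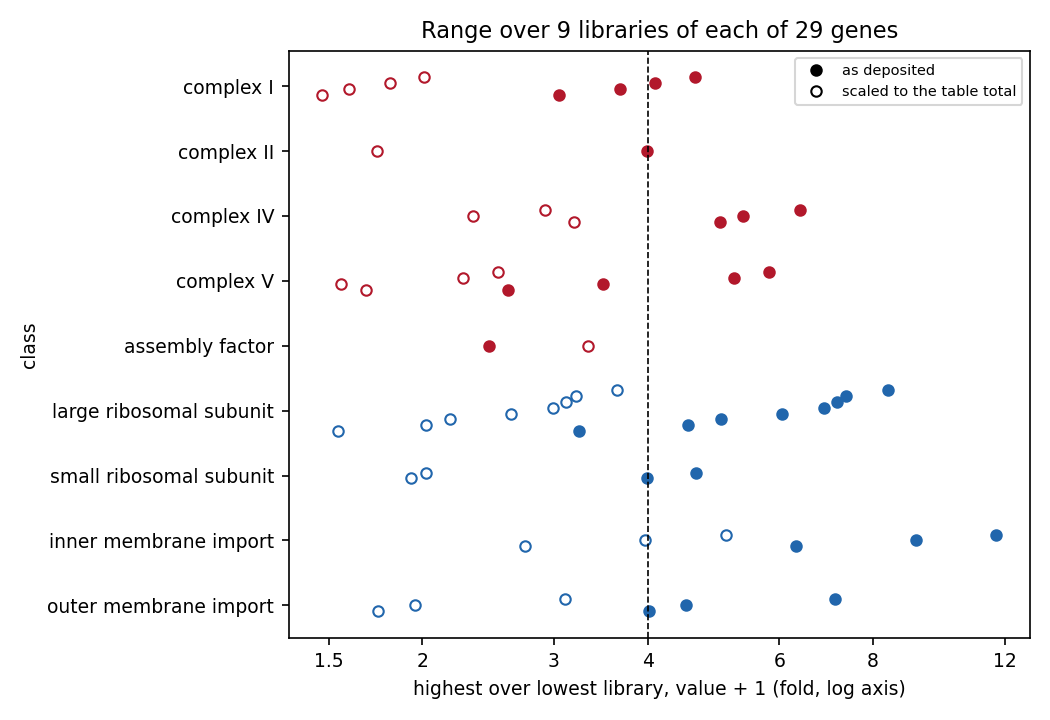
Each point is 1 gene, placed by class and by its highest over lowest library on a log axis; filled points use the deposited values, open points values scaled to the table total, and the dashed line is 4-fold. Filled points reach 11.7-fold for Timm8a1 in the inner membrane import class, and every open point but that of Timm8a1 lies left of the line.

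Complex I oxidises NADH and is the entry point for most electrons. The highest median count of its 4 measured genes was that of Ndufa9, an accessory subunit, with normalized counts of 5688, 7311, 2371, 3693, 8523, 7029.6, 9714, 3881 and 4961 in libraries 1 to 9. Ndufs8, an iron-sulphur subunit of the catalytic core, had 4134, 5019, 1564, 2710.3, 5022, 4797, 7249, 2935 and 3489.6, the widest range of the 4 at 4.63-fold. Both were highest in library 7 and lowest in library 3, and in both library 5 was second. Ndufb10, an accessory subunit of the membrane arm, ran from 1583 in library 3 through a median of 3502 to 5826 in library 7. Ndufv3, a small accessory subunit near the NADH-binding end, had 1759, 2094, 1170.1, 1029, 2139, 2043, 3138, 1365 and 1693, the narrowest range of the complex at 3.05-fold. As deposited it was the sole member whose lowest value fell in library 4 and not in library 3. Its share of the reads on the 29 genes was 3.34% in library 3 and 1.51% to 2.12% in the other 8. Within a library Ndufa9 had 3.23, 3.49, 2.03, 3.59, 3.98, 3.44, 3.10, 2.84 and 2.93 times the reads of Ndufv3, so the ratio was lowest in library 3 (1.88 to 2.19, exact 95% interval) and highest in library 5 (3.79 to 4.19). Intervals here and below cover counting error only.

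Complex II was represented by Sdhb, the iron-sulphur subunit of succinate dehydrogenase, which also serves the citric acid cycle. Its normalized counts were 4165, 5036, 1722, 2257, 4779.8, 5689.7, 6888, 2544 and 3543. Libraries 3 and 4 were the 2 lowest, and the range of 3.998-fold came down to 1.74-fold when libraries were scaled to the table total.

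Complex IV, cytochrome c oxidase, hands electrons to oxygen, and its 3 measured genes code for nuclear subunits around the catalytic core. Cox5a (chr9:57521274-57532426, plus strand, GENCODE M21 on mm10) had 9559, 11250.1, 2221, 3918, 10171, 11561, 14194, 4568 and 6148, the highest median count of the 13 respiratory genes and, at 6.39-fold, the widest range among them. Cox5b followed with 5655, 6451, 1765, 2724, 6014, 6757, 9481, 3074 and 3703, a 5.37-fold range. Library 7 was highest and library 3 lowest for both. Without library 3 the ranges were 3.62-fold and 3.48-fold. Cox6b2, best known as the testis form of a subunit at the interface of the dimer, had 639.8, 373, 127, 251, 549, 555, 560.3, 463 and 323, a median of 418 normalized counts per kilobase of exon against 4549.9 for Cox5a and 3563 for Cox5b. It had its highest value in library 1 and library 7 came second; its range was 4.99-fold, or 2.55-fold without library 3. Its share of member reads was highest in library 8, at 0.721%, and lowest in library 2, at 0.303%.

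Cox5a and Cox5b sit in the same complex, and a ratio of their reads within a library does not depend on how libraries were scaled. Cox5a had 1.69, 1.74, 1.26, 1.44, 1.69, 1.71, 1.497, 1.49 and 1.66 times the reads of Cox5b. The lowest ratio, in library 3 (1.18 to 1.35), and the highest, in library 2 (1.67 to 1.82), had intervals that did not overlap, and the 2 differed 1.39-fold.

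Complex V held both abundant and steady members. Atp5o, the subunit that joins the peripheral stalk to the catalytic head, had 9458, 11594, 3161, 4338, 11618, 11684, 16489, 5316 and 6909.6, a 5.21-fold range. It had the highest median per kilobase of exon among the 29, 4796 normalized counts per kilobase. This rank depends on the length used, that of all annotated exons merged, which was 1972 bases for Atp5o and 4912 for Atp5g1. Atp5h, subunit d of the peripheral stalk, ran from 1645 in library 3 through a median of 3826 to 5748 in library 7. Exons of Atp5o overlap 2 antisense genes and a second annotated gene of the same name, and without a stated strand setting their reads cannot be told apart.

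Atp5g1 and Atp5g2 both code for the c subunit of the proton-carrying ring, and their products differ mainly in the presequence that is cut off on import. Atp5g1 had 7095, 8512, 2043, 2977, 8036, 9179, 11876, 3833 and 4688, a 5.81-fold range with library 7 highest. Atp5g2 had 1481, 1148, 658, 755, 1113, 1715, 1575, 1062 and 1148, a 2.60-fold range with library 6 highest and the narrowest of the 4 in the complex. The 2 genes did not keep a fixed proportion. Reads on Atp5g1 were 4.79, 7.41, 3.10, 3.94, 7.22, 5.35, 7.54, 3.61 and 4.08 times those on Atp5g2, lowest in library 3 (2.82 to 3.42) and highest in library 7 (7.06 to 8.06), a 2.43-fold difference. Libraries 2, 5 and 7 all lay at or above 7.22 and libraries 3, 4, 8 and 9 at or below 4.08. How reads shared with paralogs or their pseudogenes were counted is not stated, which makes the 2 levels uncertain.

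Cox15, which makes the haem A of complex IV and is the sole assembly factor among the members, was near the filter, with 24.6, 11.8, 9.44, 21.7, 18.5, 15.4, 12.3, 12.6 and 13.8. It was represented by 6 to 19 reads per library. The chi-square test did not separate its libraries (adjusted p = 0.286), so a difference between them was not detectable at this depth. Its exons overlap those of Entpd7 on the other strand.

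**Figure D3:**
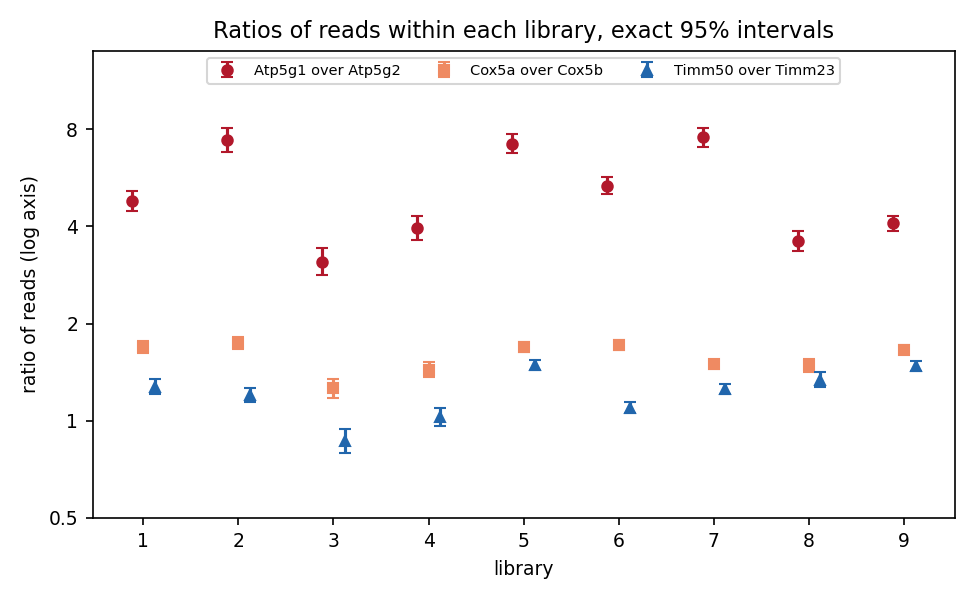
Points are ratios of recovered reads within each of the 9 libraries, on a log axis, with exact 95% intervals for counting error. Atp5g1 over Atp5g2 spans 3.10 to 7.54, Cox5a over Cox5b 1.26 to 1.74 and Timm50 over Timm23 0.866 to 1.49, each lowest in library 3.

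The mitochondrial ribosome was represented by 8 genes of the large and 2 of the small subunit. Ranges of the large-subunit genes had a median of 6.46-fold and 7 of 8 reached 4-fold, all 8 being lowest in library 3 and highest in library 7. Mrpl12 (chr11:120484613-120489065, plus strand), the stalk protein that contacts translation factors, had 4838, 5768, 1302, 2285, 8160.2, 7592, 10909, 2859 and 4284, the highest median count and, at 8.37-fold, the widest range of the 8. Mrpl54 had 1581, 1851, 422, 753, 2103, 2263, 3119, 765 and 1218 and was second in range, at 7.37-fold. Mrpl19 had 1701, 2210.0, 1062, 1436, 2983, 2506, 3437, 1954 and 2459.7, the narrowest range at 3.24-fold. Libraries 8 and 9 ranked higher for Mrpl19 than for the other large-subunit genes; library 9 came right after 7, 5 and 6, and library 8 lay above library 1. Exons of Mrpl19 share 1962 bases with those of Gcfc2 on the other strand, so its values may hold reads of that gene. The other 5 (Mrpl18, Mrpl20, Mrpl28, Mrpl36 and Mrpl42) had medians of 1675 to 3868 normalized counts and ranges of 4.53- to 7.15-fold.

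The ratio of Mrpl12 to Mrpl19 reads was 2.84, 2.61, 1.23, 1.59, 2.74, 3.03, 3.17, 1.46 and 1.74. It was lowest in library 3 (1.12 to 1.34) and highest in library 7 (3.03 to 3.33), a 2.59-fold difference. These genes have the widest and the narrowest range of the large subunit, so the size of this difference followed from the choice of pair.

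Of the small subunit, Mrps26 had 3263, 3976, 1184, 1863, 4367, 3923, 5509.6, 2170.2 and 2765, a 4.65-fold range. Mrps11 had 407, 404, 172, 212, 535, 648, 691, 257 and 338 and a range of 3.99-fold. Both kept libraries 7 and 3 at the ends. Per kilobase of exon their medians were 749 and 186 normalized counts, under the large-subunit median of 2169. Of the large-subunit genes Mrpl42, at 572, and Mrpl19, at 406, lay under Mrps26 too.

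Protein import held the 2 widest ranges, and all 6 of its genes passed 4-fold as deposited. Timm8a1 (chrX:134537256-134541865, minus strand, GENCODE M21 on mm10), a small chaperone of the space between the membranes that escorts hydrophobic precursors, had 1130.3, 1421, 214, 414, 1937, 1978, 2504, 649 and 916, the widest range of the 29 at 11.7-fold. Timm50, the receptor that takes presequences from the outer membrane to the TIM23 channel, had 5084, 6337, 1138, 2242, 8656, 6695, 10407, 3512 and 5426, a 9.14-fold range. Timm23, the channel itself, had 3996, 5272, 1314, 2183, 5822, 6095, 8289.7, 2619.9 and 3663, a 6.30-fold range. Library 7 was highest and library 3 lowest for all 3, and without library 3 the ranges were 6.03-, 4.64- and 3.80-fold.

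Receptor and channel of the same complex differed in proportion. Timm50 had 1.27, 1.20, 0.866, 1.03, 1.49, 1.10, 1.26, 1.34 and 1.48 times the reads of Timm23, lowest in library 3 (0.794 to 0.945) and highest in library 5 (1.44 to 1.54). In library 3 alone there were more reads on Timm23 than on Timm50, and its interval lay wholly under 1. For Timm8a1 the ratio to Timm23 was 0.283, 0.270, 0.162, 0.190, 0.333, 0.324, 0.302, 0.248 and 0.250, from 0.162 in library 3 to 0.333 in library 5.

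At the outer membrane, Tomm40, the channel through which nearly all imported proteins pass, had 4285, 5282, 1362, 2615, 7176, 7274, 9714, 3315 and 5509, a 7.13-fold range. Tomm20, the receptor for presequences, had 5100.4, 5523, 2055, 2459.8, 6412, 6137, 8257, 3216 and 3642, a 4.02-fold range. Tomm5, a small subunit of the channel complex, ran from 586 in library 3 through a median of 1408 to 2642 in library 7. The channel varied more than its receptor: reads on Tomm40 were 0.840, 0.956, 0.663, 1.06, 1.12, 1.19, 1.18, 1.03 and 1.51 times those on Tomm20, with library 3 lowest (0.615 to 0.715) and library 9 highest (1.46 to 1.57).

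To set the respiratory genes against the ribosome and import genes without the scaling of libraries, their reads were compared within each library. Respiratory genes took 55.2, 54.7, 57.2, 54.4, 49.3, 51.8, 50.8, 52.4 and 49.7 per cent of the reads on the 29 genes in libraries 1 to 9. The highest share was in library 3 (exact 95% interval 56.7% to 57.8%) and the lowest in library 5 (49.0% to 49.6%), and these intervals did not overlap. Without library 3 the highest share was 55.2%, in library 1. Libraries 1 to 4 all lay at or above 54.4% and libraries 5 to 9 at or under 52.4%. The difference was beyond counting error, and no replicate spread was at hand to set it against. Abundant genes set such a share, so 1 gene each of the respiratory, ribosome and import sets was also left out, all together. These were Atp5o, Mrpl12 and Timm50, which had the most reads of their set summed over the libraries. The share then ran from 51.5% in library 5 to 57.4% in library 3. Set against the mitochondrial ribosome alone it ran from 64.6% to 70.7%, and per kilobase of exon from 49.6% to 59.2%, in the same 2 libraries.

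**Figure D4:**
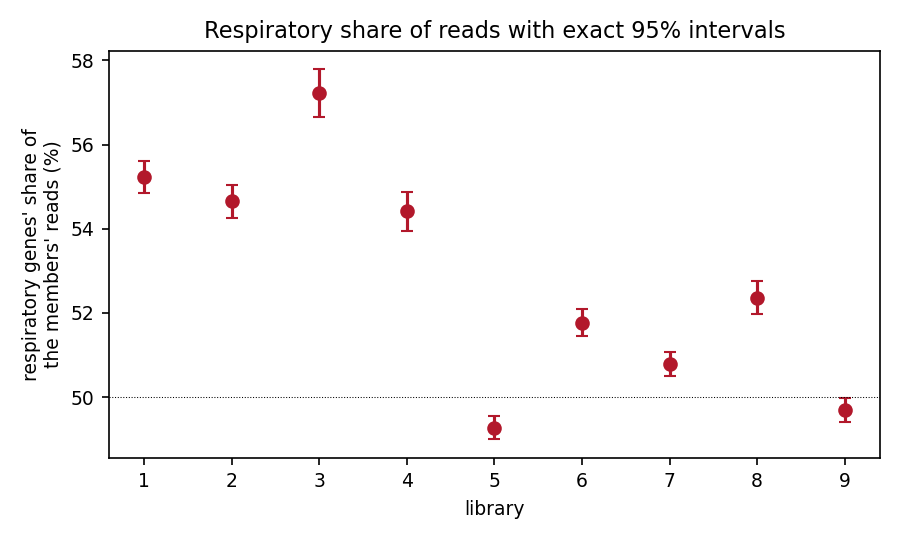
Points give the percentage of the reads on the 29 genes that fell on the 13 respiratory genes in each library, with exact 95% binomial intervals for counting error; the dotted line is 50% and the axis does not start at 0. Library 3 is highest at 57.2% and library 5 lowest at 49.3%.

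Weighting each gene equally gave the same upper end. Each gene's log2(normalized count + 1) was taken less its own median over the 9 libraries, and the median over a set was computed per library. For respiratory genes these medians were 0.00, 0.25, -1.27, -0.88, 0.24, 0.28, 0.73, -0.65 and -0.32 in libraries 1 to 9, and for ribosome and import genes 0.00, 0.21, -1.60, -0.997, 0.43, 0.47, 0.88, -0.66 and -0.25. The medians over all 2341 tested genes were 0.72 in library 3, 0.44 in library 4 and 0.00 in the other 7. Relative to them the respiratory genes stood at -1.99 and the ribosome and import genes at -2.32 in library 3, and at -1.32 and -1.43 in library 4. With libraries scaled to the table total the same relative values were -2.08 and -2.42 in library 3, and -1.26 and -1.44 in library 4. In library 7 they were 0.73 and 0.88 as deposited, and 0.68 and 0.77 after that scaling. The reference was not matched for abundance, and 26 of the 29 genes had a median of at least 1000. Of tested genes that abundant 85.6% were lowest in library 3, against 36.6% of all tested genes. For the highest value in library 7 the shares were 69.1% and 24.8%. A gene high in libraries 3 and 4 alone could not reach such a median, so the cut itself bears on these shares.

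The gap, respiratory less ribosome and import, was 0.00, 0.04, 0.32, 0.11, -0.18, -0.19, -0.15, 0.02 and -0.07, highest in library 3 and lowest in library 6. Library 1 held the median value of most genes of both sets, so its 0.00 follows from taking each gene less its own median. After scaling to the table total the gap was 0.16, 0.15, 0.34, 0.17, -0.19, -0.01, -0.09, 0.07 and -0.01, highest in library 3 again and lowest in library 5. The 2 sets overlapped widely: in library 3 the middle 50% of respiratory genes lay between -1.68 and -1.15 and that of ribosome and import genes between -1.97 and -1.41. Without library 3 the largest positive gap was 0.075, in library 4, so the upper end of the gap rested on that library.

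**Figure D5:**
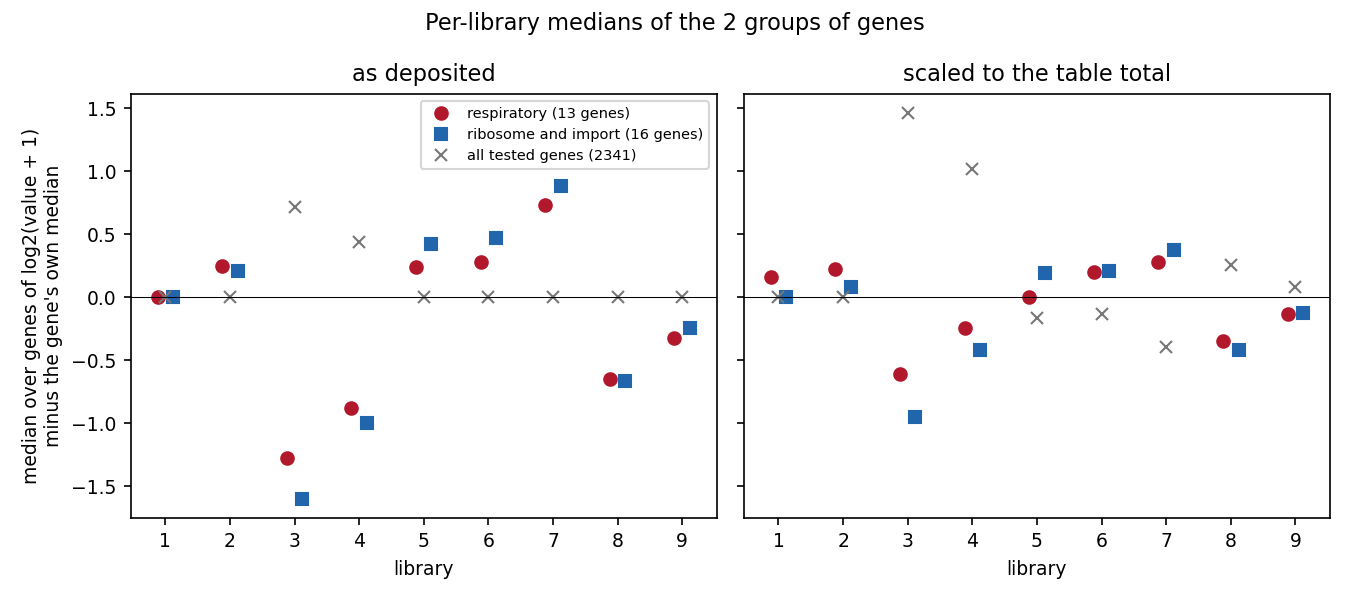
Points are medians over 13 respiratory genes (circles), 16 ribosome and import genes (squares) and all 2341 tested genes (crosses) of log2(value + 1) less each gene's own median, per library, for the deposited scaling and for scaling to the table total. In both panels the squares lie below the circles in library 3, by 0.32 and 0.34, and in library 5 above them, by 0.18 and 0.19.

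By class, the lowest library 3 median was that of inner membrane import, -2.25, followed by complex IV at -1.85 and the large ribosomal subunit at -1.74. Complex I was at -1.20, complex II at -1.27 and complex V at -1.40, close to outer membrane import at -1.31 and the small ribosomal subunit at -1.34. In library 3 the lower values of the ribosome and import set thus stood in 2 of its 4 classes. In library 7 the class medians ran from 0.57 for complex IV to 1.05 for inner membrane import, with Cox15 alone below 0, at -0.15. Outer membrane import, at 0.88, and the large ribosomal subunit, at 0.82, lay above complex I, at 0.79. The small ribosomal subunit, at 0.76, lay below it. With libraries scaled to the table total inner membrane import stayed lowest in library 3, at -1.60, and complex II was the highest of the subunit classes, at -0.48.

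Each gene's share of the reads on the 29 genes shows which members left the common pattern, again free of scaling. Atp5o kept the steadiest share, 9.17, 9.41, 9.03, 8.20, 8.66, 8.61, 9.03, 8.27 and 8.12 per cent, a 1.16-fold span. Mrpl20, Timm23 and Mrps26 followed with spans of 1.20, 1.21 and 1.22. Cox15 had the widest span, 6.11-fold, on few reads. Next came Timm8a1, whose share ran from 0.610% in library 3 to 1.46% in library 6, Cox6b2, and Atp5g2, whose share ran from 0.829% in library 5 to 1.88% in library 3. Of the respiratory genes 5 had their highest share in library 3 and 1 its lowest, while of the ribosome and import genes 3 had their highest there and 7 their lowest.

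Other genes of mitochondrial metabolism were read from lists of 185 genes, of which 30 were in the table. All 30 passed the chi-square test, close to the 98.7% of all tested genes. The highest and lowest libraries lay 4-fold or more apart for 66.4% of all tested genes. Among those with a median of at least 1000 the share was 49.0%. In these lists 13 of the 30 genes reached that size, and the median over the 30 was 3.68-fold. Lowest values fell in library 3 for 24 of them and highest values in library 7 for 23. The shares were 36.6% and 24.8% of all tested genes and 85.6% and 69.1% of those with a median of at least 1000. As said above, that cut shuts out genes high in libraries 3 and 4 alone. No gene encoded by mitochondrial DNA (list of 15) and none of 13 genes of mitochondrial fusion and fission was in the table, so the products of the mitochondrial ribosome were not analysed here.

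Cycs, cytochrome c, which carries electrons from complex III to complex IV, had 5027, 7313, 1069, 2157, 7312, 7775, 10556, 2584 and 4058, the widest range of these 30 at 9.87-fold. Etfb, a subunit of the flavoprotein that brings in electrons from fatty acid oxidation, had the highest median count, ranging from 5646 in library 3 through a median of 17624 to 29207 in library 7. Cyc1, the complex III subunit outside the name rule, had 11190.0, 13148, 4125, 5860.0, 15789, 15866, 19999.7, 7673 and 9904, a 4.85-fold range. All 3 were lowest in library 3 and highest in library 7, like most respiratory genes. Idh3a, the catalytic subunit of an isocitrate dehydrogenase in the citric acid cycle, ran from 1293 in library 3 through a median of 4079 to 8345 in library 7, a 6.45-fold range.

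Partners of import and folding mostly took the same direction. All 4 measured genes of the import list were lowest in library 3 and highest in library 7. Of 6 chaperones and proteases all were lowest in library 3 and 5 were highest in library 7. Samm50, which inserts barrel proteins into the outer membrane, ran from 2658 in library 3 through a median of 5968 to 11874 in library 7. Grpel1, a cofactor of the import motor, had a 6.40-fold range, and the matrix chaperonin pair Hspd1 and Hspe1 had ranges of 4.78- and 8.42-fold. In mitochondrial translation, 3 of 4 measured genes were lowest in library 3 and only 2 were highest in library 7. The elongation factor Tufm ran from 1128 in library 3 through a median of 2039 to 3752 in library 7. Cars2, a cysteine tRNA synthetase, had a 6.93-fold range.

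Genes of mitochondrial transcription and its control did not all follow the members. Tefm, an elongation factor of the mitochondrial RNA polymerase, ran from 121 in library 8 through a median of 161 to 243 in library 7, and Tfb2m, an initiation factor of that polymerase, from 49.98 in library 5 through a median of 69.9 to 109.8 in library 4. Nrf1, whose product binds the motif searched above, ran from 370.4 in library 3 through a median of 836 to 1065 in library 7, a 2.87-fold range in the members' direction. Sirt3, a mitochondrial deacetylase, went the other way, with 1472, 1305, 3942, 3648, 1156, 1118, 1345, 2362 and 1664, highest in libraries 3 and 4. Of 4 glycolysis genes measured, 2 reached a 4-fold range and 1 was lowest in library 3, counts too small to set against the 66.4% and 36.6% of all tested genes. Pgk1 had the highest median of the 4 and took the members' direction, from 2385 in library 3 through a median of 5132 to 8910 in library 7. Slc2a3 was highest in library 3 and Slc2a1 in library 4. Ldhb, a lactate dehydrogenase subunit, had the widest range of the 4, on 146, 190.4, 8434, 7543, 212, 109, 189, 1625 and 873. Libraries 3 and 4, the 2 lowest for 28 members, held its 2 highest values, followed by libraries 8 and 9.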

How the data were processed

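RNA of 9 sorted samples was sequenced. Per the labels' protocols, Trizol served for extraction and a NEBNext Ultra kit, said to use Tn5, for the libraries. Per the submitters' processing notes, the build was mm10 and the tools were Bowtie2, STAR and DESeq; their roles and versions, the counting, the strand setting and the choice of genes are not stated there. The authors deposited normalized counts in 1 table, a signal with 1 scale per library, in which no row names a sample. No test between groups was therefore run, and whether samples are separate animals is not stated.

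Low values of a row were whole multiples of 1 step (0.724 to 1.96), which gave whole reads within 0.1 for 100% of values. Intervals are exact binomial at 95%, and a count of 0 allows up to 3 reads. The 2341 genes that reached 10 normalized counts in 2 or more libraries were tested by a chi-square of these reads against 1 rate, Benjamini-Hochberg adjusted at 0.05, which compares libraries and not conditions. Ranges use a pseudocount of 1 and a threshold of 4-fold. Values per kilobase divide by the merged length of all annotated exons of a gene, which may exceed the length of the transcripts present. Of the 36 pairs of libraries none agreed within sampling noise. Scripts used Python 3.11.15, numpy 2.4.6, scipy 1.17.1, pandas 2.3.3 and matplotlib 3.10.9, and were tested on simulated data.

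Within each class the text names the most abundant gene by median, the 2 widest ranges and the narrowest, or all of a class of up to 4. Of each other mitochondrial list it names the highest median and the widest range. Nrf1, Cyc1, the 4 glycolysis genes and genes counted singly were named after their values were seen. The members, classes and 18 gene lists were chosen with earlier results of these data known. No rule was set in advance for the pairs of genes whose reads were compared. Alternatives were other scalings, pseudocounts, filters, sets of genes and leaving out each library.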

Additional observations from a re-analysis of the deposited data

How the results depend on the processing

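No paired analysis was possible because the rows of the table carry no sample name or replicate number. The chi-square test called 28 or 29 members under each of the 12 alternatives run, against 28 as reported. The count of respiratory genes with a range of at least 4-fold, 7 as deposited, was 0 with libraries scaled to the table total, 11 with median-of-ratios scaling, 2 with quantile normalization and 0 without libraries 3 and 4, an alternative chosen after seeing the data. The count of ribosome and import genes, 14 as deposited, was 1, 16, 5 and 1 in that order. Leaving out 1 library at a time gave 0 to 7 respiratory and 5 to 14 ribosome and import genes, the low ends without library 3. Pseudocounts of 0.5 and 5, no filter, a filter at a median of 100 and a floor of 3 reads left both counts within 1 of these. The lowest respiratory share, 49.3%, was 51.5% without Atp5o, Mrpl12 and Timm50, and 64.6% against the mitochondrial ribosome alone. It was 49.6% per kilobase and 49.3% to 49.7% with 1 library left out. The highest, 57.2%, was 70.7% against the mitochondrial ribosome alone, 59.2% per kilobase and 55.2% to 57.2% with 1 library left out. The highest class gap, 0.32, was 0.80 with quantile normalization, 0.080 without libraries 3 and 4, and 0.075 to 0.34 with 1 library left out; the lowest, -0.19, kept its sign in all 19 alternatives. The cause was not tested. Depth limits Cox15 above all, at 6 to 19 reads per library.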
